A study of Mus musculus with 4 samples.

Results

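Late granular Lce1-high keratinocytes were 944 of the 34150 epidermal cells kept from 4 mice, 2.76% of all cells. They were chosen by their own counts: the rounded counts of the 14 genes whose symbols begin with Lce1 summed to at least 20, with fewer than 10 counts of Cst6 and fewer than 2 counts of 2310046K23Rik. Cells were barcodes with at least 1200 counts in all and at most 20% mitochondrial counts. All 4 mice were C57BL/6N females at postnatal day 19 that carried the floxed CerS4 allele on both chromosomes (CerS4 fl/fl). The 2 control mice had no Cre, and the 2 CerS4epi-/- mice had K14Cre, in which the keratin-14 promoter is active in basal cells, so that their suprabasal descendants carry the deletion too. Dissociated dorsal epidermis was captured with BD Rhapsody, a microwell method that tags each transcript with a unique molecular identifier. Cells were labelled with sample tags of a multiplexing kit, and 1 count matrix per mouse was deposited. The members numbered 248 and 355 in control mice 1 and 2 and 197 and 144 in CerS4epi-/- mice 1 and 2, and their summed counts were 2402442 and 3106723 against 2093073 and 1476399.

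Late granular keratinocytes are the last living cells of the epidermis before the stratum corneum. They pack their periphery with envelope proteins such as loricrin and the late cornified envelope (LCE) proteins, secrete ceramide precursors from lamellar granules, loosen the older desmosomes and finally clear nucleus and organelles. CerS4 is 1 of the ceramide synthases, which join fatty acids to a sphingoid base. The targeted gene itself could not be read in these cells, with 1 count of Cers4 in each control mouse and 0 in each CerS4epi-/- mouse, where a count of 0 allows up to 3. Over all cells kept, Cers4 had 697 and 145 counts in controls and 202 and 270 in CerS4epi-/- mice, which overlap. The exons removed by Cre are not given in the sources used here, so reads of the remaining exons check nothing about the genotype.

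The Lce1 counts separated a small group of cells from the others. Most cells kept had no Lce1 count, 1083 cells within both gene limits had 3 to 19, and among the members 694 had at least 100 and 191 at least 1000. Near the limit of 20 the cells were few, with 67 cells at 15 to 19 counts just outside and 51 members at 20 to 24 just inside. Single Lce1 counts were spread over cells that should lack the genes: 16.6% to 23.02% of cells with T cell markers and 20.7% to 23.8% of Krt14-high, Krt10-low basal cells had at least 1, at median depths of 1549 to 1922 and 3450 to 4322 counts, while 3 of 449 and 20 of 5340 of them reached 20. The 2 gene limits left out 570 of the 1514 cells with at least 20 Lce1 counts, 37.1% and 30.5% of them in the control mice and 44.8% and 42.9% in the CerS4epi-/- mice.

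**Figure D1:**
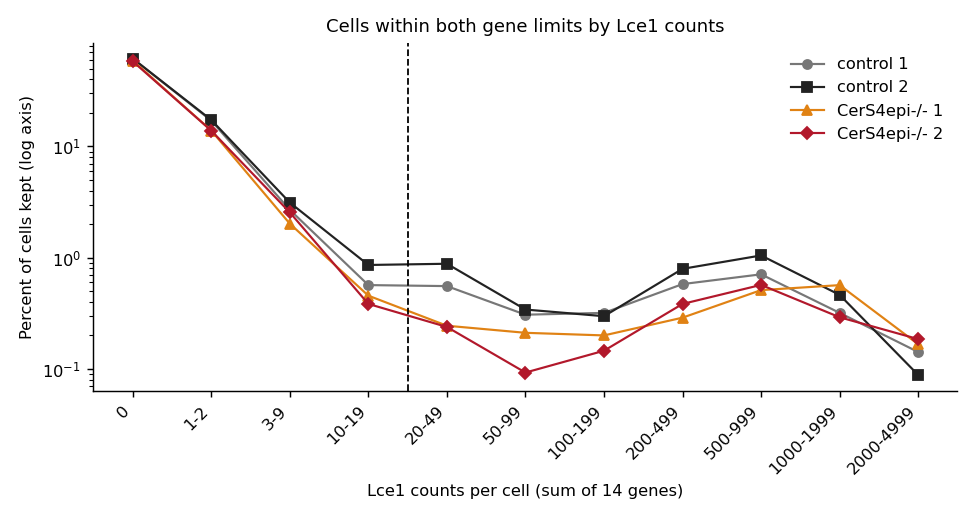
Percent of the cells kept in each mouse (log axis) that met the Cst6 and 2310046K23Rik limits, by the number of Lce1 counts per cell. The dashed line marks the limit of 20, right of which the 944 members lie, with 694 of them at 100 counts or more.

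Members were deep and poor in mitochondrial counts. Their median depth was 9833.5 and 8942 counts in controls and 11027 and 10484.5 in the CerS4epi-/- mice, against 3266.5 to 3884 over all cells kept, and their median mitochondrial share was 3.42% and 3.33% against 2.96% and 2.77%. No doublet caller was run here, and the deepest members were left out in an alternative fit. Control mouse 1 and control mouse 2 shared 0 cell barcodes, CerS4epi-/- mouse 1 and mouse 2 likewise 0, while pairs of mice of different genotype shared 64 to 102, near the 73 to 93 that the product of their cell numbers over the barcode whitelist gives. Of the members, 12 carried a barcode found in another mouse. For the 2 pairs within a genotype, which shared 0, that product is 87 and 77. Cells carried sample tags that the authors demultiplexed, and which mice shared a cartridge is not given in the sources used here, so capture and genotype cannot be told apart.

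Lce1m was the family member of all these cells. It had counts in 100% of the members, and it took 74.7% and 83.3% of the Lce1 counts in the control mice and 67.5% and 69.6% in the CerS4epi-/- mice. Before rounding, the other 13 genes had an entry in 8.26% (Lce1h) to 43.5% (Lce1a1) of the members. Such an entry can round to 0, and Lce1g had entries in 152 cells but few rounded counts. They were 6 and 1 in the control mice and 72 and 12 in the CerS4epi-/- mice. These are thus shares of entries and not of cells with a count. All 14 genes lie on mouse chromosome 3, between 92553842 and 92926367 (GRCm39), in the epidermal differentiation complex, with Lce1m at the far end of the row. Their transcripts are alike, and reads that matched several genes were split between them by the authors: 54.8% of the Lce1c entries, 53.0% of the Lce1a1 entries and 0% of the Lce1m entries in members were not whole numbers, so single values of the genes other than Lce1m are uncertain.

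The bases before the annotated starts are shown because the 14 genes are counted as 1 family and chose the cells. Each line gives the 80 bases before the start of a gene in Gencode vM39 (GRCm39), 5′ to 3′ on the strand of the gene; capitals mark ATAAAA, with a T before it where the letters are TATAAA, and the sequence TGANTCA, read on both strands.
Lce1m: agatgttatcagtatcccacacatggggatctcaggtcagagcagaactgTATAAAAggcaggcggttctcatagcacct
Lce1d: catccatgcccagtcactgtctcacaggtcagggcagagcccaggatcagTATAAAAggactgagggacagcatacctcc
Lce1c: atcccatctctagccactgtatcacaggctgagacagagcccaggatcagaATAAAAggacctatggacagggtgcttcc
Lce1a1: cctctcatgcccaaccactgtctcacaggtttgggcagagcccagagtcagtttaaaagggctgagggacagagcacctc
Lor: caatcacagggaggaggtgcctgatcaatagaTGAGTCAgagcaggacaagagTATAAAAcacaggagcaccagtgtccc
These are chr3:92926368-92926447 (minus strand), chr3:92594518-92594597 (minus), chr3:92586474-92586553 (plus), chr3:92555615-92555694 (minus) and chr3:91990450-91990529 (minus). ATAAAA began between positions -40 and -20 before the start, on the strand of the gene, in 13 of the 14 Lce1 genes, at -29 in Lce1m, and in 2.05% of 21757 protein-coding genes. The overlapping TATAAA was there in 2 of the 14, Lce1m and Lce1d, and in 2.39% of all genes, and Lce1a1 had neither. TGANTCA, the letters of an AP-1 site, was in 0 of the 14 windows of 300 bases (250 before to 50 after the start), in the window of Lor and in 7.51% of all windows. Most of the 14 Lce1 genes are alike in these bases, so their matches are not independent, and the difference from all genes was not tested. A match of letters is a description and not a site of binding.

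The levels of the Lce1 genes chose these cells and are given without a test. Lce1m stood at 38539.8 and 44583 CPM in the control mice and 59051 and 57178 CPM in the CerS4epi-/- mice, with CPM here and below meaning counts per 1000000 counts after scaling by TMM, a trimmed mean that sets the bulk of genes equal between mice. The next gene, Lce1c, stood at 3830.2 and 2893 CPM in the control mice and 8009.8 and 6831 CPM in the CerS4epi-/- mice. Both CerS4epi-/- mice lay above both control mice for these and for each of the other 12 genes. As a ratio the gap was widest in genes of low level. Lce1g stood at 2.19 and 0.299 CPM in the control mice and 39.1 and 8.77 CPM in the CerS4epi-/- mice. Lce1k stood at 3.29 and 5.98 against 42.9 and 104 CPM. Then came Lce1i at 92.1 and 57.7 against 323 and 522 CPM and Lce1j at 17.9 and 22.4 against 90 and 131 CPM. The median Lce1 sum of a member was 343 and 357 in the control and 694 and 616 in the CerS4epi-/- mice, and the median share of a cell's counts taken by Lce1 was 4.06% and 4.39% against 6.12% and 5.63%. The members thus did not sit at the same place along the Lce1 share in the 2 genotypes, and a fit on 141 cells per mouse drawn to equal numbers in each interval of that share, chosen after seeing the data, is given beside the results as the matched fit.

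Beside Lce1, the most abundant transcript was Lor, for loricrin, the main protein of the cornified envelope, at 50584 and 58065 CPM in the control mice and 77084 and 75460.2 CPM in the CerS4epi-/- mice. Krtdap, a secreted protein of differentiating keratinocytes, followed at 31889 and 36058 CPM in the control mice and 37258 and 36057 CPM in the CerS4epi-/- mice, and Crct1, a small cysteine-rich gene of the epidermal differentiation complex, at 14182 and 15468 CPM in the control mice and 22569.8 and 19304 CPM in the CerS4epi-/- mice. The other 17 of the 20 highest levels included the calmodulin-like Calm4, the filaggrin-processing protease Asprv1, the small heat shock protein Hspb1, the desquamation protease Klk7, the corneodesmosome protein Cdsn, the envelope genes Flg2, Sbsn, Dmkn and Nccrp1, and the keratins Krt80, Krt10 and Krt77. The 10 most abundant genes held 21.7% and 23.1% of the counts in the control and 24.1% and 24.1% in the CerS4epi-/- mice.

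Set beside 9528 spinous cells (at least 20 Krt10 counts, fewer than 3 Lce1 counts, the same gene limits), the members had much of the profile that the label late granular names. Of 16 late granular markers, 10 reached a mean of 20 TMM-scaled CPM in members. Among the others, Lce3a, Lce3b and Lce3d had 0 counts, and Lce3e and Lce3f stood at 2.49 and 2.08 CPM. The values that follow are unscaled CPM averaged over the 4 mice, and they are a description, since the members were chosen by their counts. Lor stood at 64474 CPM in these cells and 1344 CPM in spinous cells, the protease Casp14 at 1463 CPM in these cells and 244 CPM in spinous cells, and Flg, the precursor of filaggrin, at 1647 CPM in these cells and 49.2 CPM in spinous cells. Of the genes most above spinous cells, Btc, an EGF-family ligand, stood at 4663 CPM in these cells and 8.71 CPM in spinous cells, Spns2, a sphingosine 1-phosphate transporter, at 1782 CPM in these cells and 7.04 CPM in spinous cells, and the carboxypeptidase Cpa4 at 1153 CPM in these cells and 1.92 CPM in spinous cells. Prdm1, a repressor of late keratinocytes, went from 5.56 to 804 CPM.

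On the other side, Krt1, the type II keratin partner of Krt10, stood at 234 CPM in these cells and 6118 CPM in spinous cells, and Dsc3, a desmosomal cadherin of lower layers, at 70.8 CPM in these cells and 1365 CPM in spinous cells. The chloride channel Ano1 stood at 4.93 CPM in members against 103. Ribosomal protein genes took 3.66% and 3.52% of member counts in the control mice and 2.49% and 2.63% in the CerS4epi-/- mice, which did not overlap. Of spinous counts they took 11.95% and 12.7% against 13.2% and 12.3%, where the genotypes overlapped. Cells with 3 to 19 Lce1 counts lay between for Lor, at 9664 CPM, and for Flg, at 323 CPM. Their Krt10 level of 25747 CPM was near that of spinous cells, 25381 CPM, which were chosen by this gene, and members held 6016 CPM. The Lce1-high cells left out by the gene limits had Lor at 48626 and Casp14 at 1292 CPM.

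Members were not uniform, and their genes were ordered along the Lce1 share. From members with under 1% of their counts in Lce1 to those with at least 12%, the median number of genes detected went from 2451 to 2776 down to 1131 to 1256, depending on the mouse. Krt10 went from 1.84% of counts to 0.049% (mean of 4 mice), Dsp, for the desmosomal plaque protein desmoplakin, from 0.344% to 0.0133%, and ribosomal protein genes from 5.29% to 1.35%. Lor went from 3.56% to 9% and Kprp, another cornified envelope gene, from 0.048% to 1.21%. Envelope genes did not all go one way, with Ivl, for involucrin, from 0.0819% to 0.00176% and Hrnr, for hornerin, from 0.109% to 0.047%. Bnip3, a receptor for mitophagy, went from 0.0114% to 0.116% at 9% to 12% Lce1 and then to 0.0822%. A share of counts also falls where Lce1 takes more of the total.

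Some genes peaked in the middle. Btc stood at 0.0481% of counts in the lowest interval, 0.883% at 6% to 9% Lce1 and 0.213% in the highest. Alox12b, a lipoxygenase needed for the lipid envelope, went from 0.165% to 0.284% at 3% to 6% and down to 0.0844%. Within the family, Lce1m already held 4.49% of counts at a share of 3% to 6%, where Lce1c held 0.023%, and in the highest interval Lce1m held 9.89% and Lce1c 3.12%. The intervals are cut by the sum of these same genes, so their own course is set by the grouping.

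**Figure D2:**
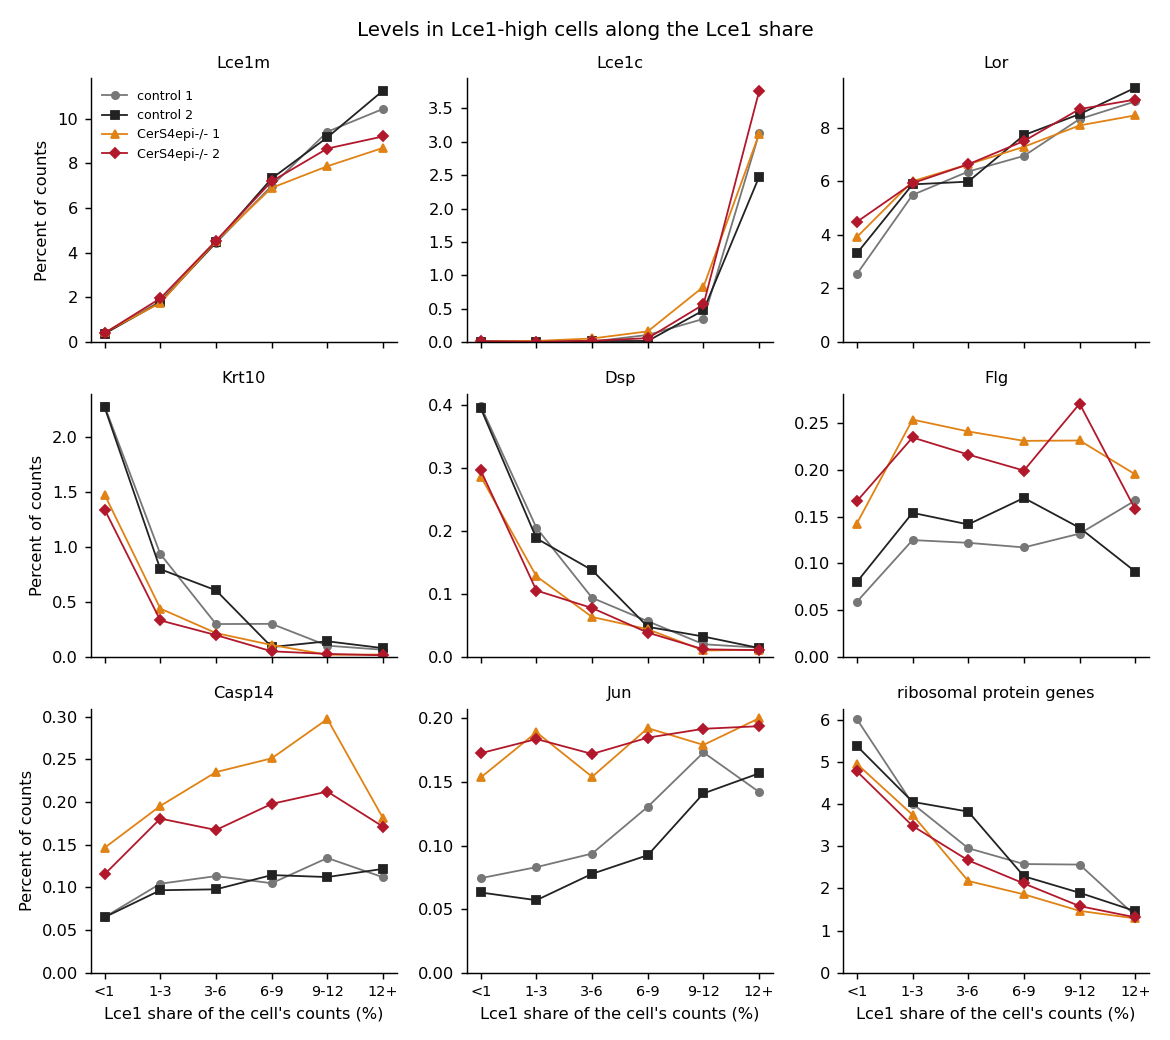
Percent of summed counts (y axes, from 0) taken by 8 genes and by the 80 ribosomal protein genes in members grouped by the Lce1 share of the cell (x axes), with 1 line per mouse. Krt10, Dsp and ribosomal protein genes decline while Lor climbs (the Lce1 genes define the x axis), and both CerS4epi-/- mice lie above both controls for Flg in 5 of the 6 intervals and for Casp14 and Jun in all 6.

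Fewer of the cells kept were members in the CerS4epi-/- mice, 2.18% and 1.90% (95% Wilson intervals 1.90% to 2.51% and 1.62% to 2.24%), than in the control mice, 2.92% and 3.91% (2.59% to 3.31% and 3.53% to 4.33%). The genotypes did not overlap, and with 2 mice each the smallest p of an exact permutation test (two-sided) is 0.333, which was reached. Intervals cover counting error only. With every cell thinned to 1200 counts the shares were 2.48% and 3.12% against 2.13% and 2.09%. Among cells with at most 10% mitochondrial counts they were 4.07% and 5.40% against 4.15% and 3.49%, where the genotypes overlapped, so the difference was not detectable with 2 mice. A share of cells can move with the other cells of the suspension, and the number of these cells in the tissue was not measured.

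The question of what differs inside these cells was put to the summed counts of each mouse, with edgeR's quasi-likelihood test across all genes and Benjamini-Hochberg adjustment at 0.05. Of 7488 genes tested beside the genes of the rule, 1467 (19.6%) passed, 955 of them (12.8%) higher and 512 (6.84%) lower in CerS4epi-/- mice. Of those, 251 higher and 225 lower genes had an absolute log2 fold change of at least 1. At an unadjusted p under 0.05 the shares were 32.3%, and 42.7% under library size scaling. The genotypes did not overlap in 61.7% of all genes tested, with both CerS4epi-/- mice above both controls in 27.0%. These percentages are the background for every count of list members below. The median log2 fold change of all genes was -0.04. Scaling by library size alone, added after seeing the data, shifts the median by -0.33. Lce1 took 5.88% and 5.76% of member counts in the control and 7.71% and 7.61% in the CerS4epi-/- mice, and Lor 5.76% and 6.25% against 6.79% and 6.99%. Library size scaling passes 29.2% of the genes, 465 higher (6.21%) and 1720 lower (23%), among them 465 of the 955 higher and 512 of the 512 lower genes, and calls 0 of the 955 higher genes lower, with a negative value for 2 of them. A rise below is a rise relative to the bulk of the genes of these cells.

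The matched fit passed 455 of 6046 genes (7.53%), 299 higher (4.95%) and 156 lower (2.58%). Of the 1467 genes, 1408 were tested in it, 1395 with the same sign, and 428 passed again in the same direction. It has fewer cells, and 144 cells drawn per mouse without matching passed 360 genes. With DESeq2 on all members 885 genes passed, 705 higher and 180 lower. In members with at least 6% Lce1, 181 genes passed, 131 higher and 50 lower. Without control mouse 1 the count was 943 in place of 1467. Immediate early genes and markers of other cells that differed between the genotypes are given below with their levels.

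Most envelope genes tested rose. Of 18 genes of the cornified envelope list that could be tested, 12 were higher, 2 lower and 4 did not pass (median log2 fold change 0.49, beside -0.04 over all genes). Flg was at 980.5 and 1177 CPM in the control mice and 2456 and 2204 CPM in the CerS4epi-/- mice (log2 fold change 1.15 ± 0.12 (SE), adjusted p = 1.23e-04). Hrnr, a filaggrin-like protein, was at 626 and 694 CPM in the control mice and 1329.5 and 1258 CPM in the CerS4epi-/- mice (log2 fold change 1.01 ± 0.10 (SE), adjusted p = 1.44e-04), and Lce6a, a distant member of the LCE family, at 465 and 559.6 CPM in the control mice and 1332 and 1064 CPM in the CerS4epi-/- mice (log2 fold change 1.26 ± 0.13 (SE), adjusted p = 1.62e-04). Each of the 3 had both CerS4epi-/- mice well above both controls. Of the late granular markers, which overlap this list, 9 of 10 tested rose and 0 fell (7 and 0 under library size scaling, 5 and 0 in the matched fit).

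Lor rose less (log2 fold change 0.53 ± 0.11 (SE), adjusted p = 0.00631, from the levels above), and Crct1 likewise (log2 fold change 0.54 ± 0.11 (SE), adjusted p = 0.00678), while Krtdap did not pass (log2 fold change 0.15, adjusted p = 0.383). Neither Lor nor Crct1 passed under library size scaling (0.20 and 0.20) or in the matched fit (0.18, adjusted p = 0.188, and 0.05, adjusted p = 0.788), and Krtdap turned to -0.19. The 2 genes that fell were Ivl, at 420.4 and 343 CPM in the control mice and 243 and 126 CPM in the CerS4epi-/- mice (log2 fold change -0.99 ± 0.22 (SE), adjusted p = 0.00947), and Scel, for sciellin, at 42 and 53.5 against 33.6 and 22.7 CPM (log2 fold change -0.70). Under library size scaling the list held 7 higher and 4 lower, and in the matched fit 6 higher and 0 lower of 18. Of the Lce3 genes 1 could be tested, Lce3c, at 44.6 and 34.1 against 122 and 54.1 CPM, and it rose (log2 fold change 1.24, adjusted p = 0.0115), but not in the matched fit (0.54, adjusted p = 0.358). Tgm1, the transglutaminase that joins envelope proteins, rose from 181 and 178 to 286 and 267 CPM (log2 fold change 0.66 ± 0.11 (SE), adjusted p = 0.00161).

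**Figure D3:**
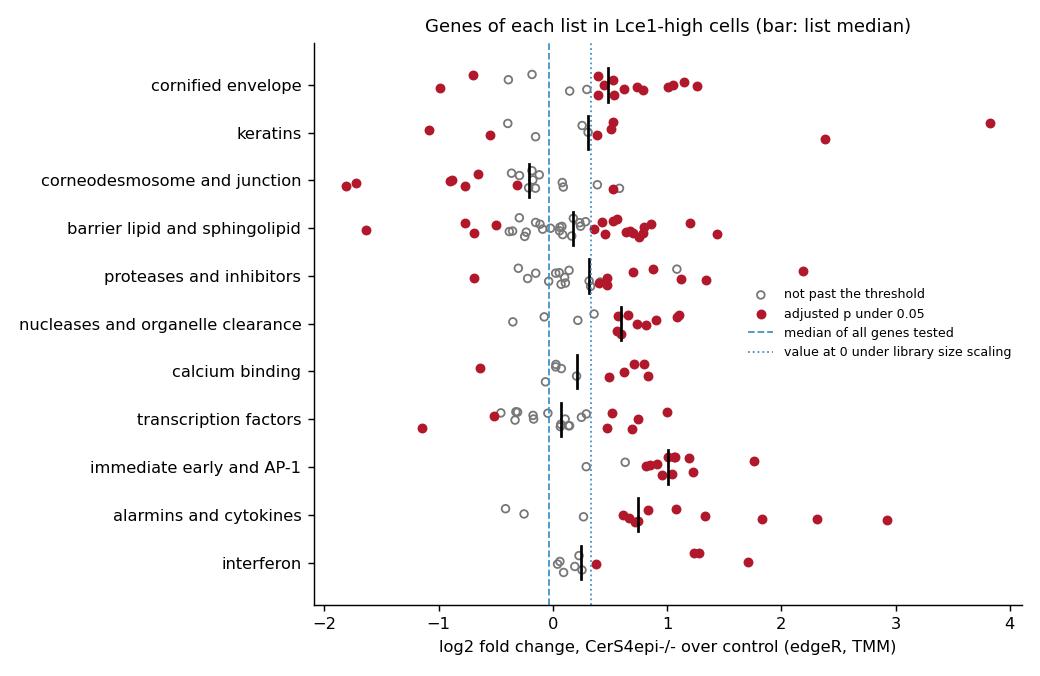
Log2 fold change between genotypes (x axis) of each gene tested in 11 lists (rows), filled where the adjusted p was under 0.05, with a bar at the median of each list. The dashed line is the median of all genes, -0.04, and the dotted line marks the value that library size scaling sets to 0. AP-1 genes lie farthest to the right, with a median of 1.01, and the junction list to the left, with -0.21.

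Keratins split. Krt10, the main keratin of the spinous layer, fell from 7789.8 and 8041 to 4015 and 3244 CPM (log2 fold change -1.09 ± 0.12 (SE), adjusted p = 1.96e-04), and Krt77, another suprabasal keratin, from 6684 and 6900.3 to 4941 and 4119 (log2 fold change -0.55 ± 0.11 (SE), adjusted p = 0.00589). In the matched fit Krt10 stood at -0.72 (adjusted p = 0.00189) and Krt77 at -0.26 (adjusted p = 0.136). Of 11 keratins tested 5 rose, the upper-layer Krt80, the basal Krt5 and Krt14, the follicle keratin Krt79 and the stress keratin Krt6a. Krt80 was at 6005 and 6619 CPM in the control mice and 8915 and 8770.0 CPM in the CerS4epi-/- mice, and Krt6a was scarce at 0.366 and 1.2 against 7.59 and 17.5 CPM. Scaled by library size, 2 keratins were higher and 3 lower, and Krt80 (0.19, and 0.20 in the matched fit) did not pass in either.

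Of 19 desmosome and junction genes tested, 7 fell, 1 rose and 11 did not pass (median log2 fold change -0.21). Dsg1a, a desmosomal cadherin of the upper layers, was at 459 and 462 CPM in the control mice and 236 and 246 CPM in the CerS4epi-/- mice (log2 fold change -0.90 ± 0.11 (SE), adjusted p = 2.31e-04), and Dsp at 1515 and 1583 CPM in the control mice and 973 and 942 CPM in the CerS4epi-/- mice (log2 fold change -0.66 ± 0.10 (SE), adjusted p = 9.23e-04). Gjb5, a connexin, had the strongest fall among those of at least 20 CPM, at 53.7 and 49.4 CPM in the control mice and 17.9 and 11.7 CPM in the CerS4epi-/- mice (log2 fold change -1.72 ± 0.22 (SE), adjusted p = 3.58e-04). The others that fell were the cadherins Dsc3, Dsg2 and Cdh1 and the plaque protein Pkp1. The gene that rose was Cdsn, for corneodesmosin, which is added to desmosomes in the last living layer, at 4767 and 5239 CPM in the control mice and 7217 and 6799 CPM in the CerS4epi-/- mice (log2 fold change 0.52 ± 0.10 (SE), adjusted p = 0.00434). Under library size scaling 0 were higher and 14 lower, without Cdsn. In the matched fit 4 of 18 were lower and 0 higher, with Dsg1a at -0.59 and Dsp at -0.46. In each mouse both genes were lower in the highest interval of the Lce1 share than in the lowest. In every interval the CerS4epi-/- mean of both genes was below the control mean. At under 1% Lce1 the control and CerS4epi-/- means were 0.123% and 0.0768% of counts for Dsg1a. For Dsp they were 0.396% and 0.291%. The part of the Lce1 share in these falls was not tested.

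Among 36 genes of barrier lipids, 14 rose, 4 fell and 18 did not pass (median log2 fold change 0.17). Smpd3, a sphingomyelinase, was at 540.3 and 541 CPM in the control mice and 1009.5 and 898 CPM in the CerS4epi-/- mice (log2 fold change 0.86 ± 0.11 (SE), adjusted p = 2.78e-04), Abca12, the lipid carrier of lamellar granules, at 556 and 618 CPM in the control mice and 944 and 917 CPM in the CerS4epi-/- mice (log2 fold change 0.70 ± 0.10 (SE), adjusted p = 7.73e-04), and Elovl7, a fatty acid elongase, at 56.3 and 67.9 CPM in the control mice and 182 and 144 CPM in the CerS4epi-/- mice (log2 fold change 1.43 ± 0.15 (SE), adjusted p = 1.79e-04). Ugcg, which adds glucose to ceramide, stood at 168 and 173 against 279 and 282 CPM (log2 fold change 0.76), and the genotypes did not overlap. In the matched fit Smpd3, Abca12 and Elovl7 stood at 0.36, 0.37 and 1.06, each past the threshold.

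Sptlc3, 1 of the subunits of serine palmitoyltransferase, the first enzyme of sphingoid base synthesis, was at 80.1 and 60.7 CPM in the control mice and 27.7 and 14.6 CPM in the CerS4epi-/- mice (log2 fold change -1.64 ± 0.25 (SE), adjusted p = 0.00102), and the other subunits Sptlc1 and Sptlc2 did not pass. Kdsr, the next enzyme, was at 85.5 and 99.9 CPM in the control mice and 66.7 and 60.7 CPM in the CerS4epi-/- mice (log2 fold change -0.50 ± 0.15 (SE), adjusted p = 0.0321). The ceramidase Acer1 and the fatty acid hydroxylase Cyp4f39 also fell (log2 fold changes -0.77 and -0.69). Scaled by library size, 8 higher and 7 lower passed, and in the matched fit 6 higher and 1 lower of 36, with Sptlc3 at -1.24 (adjusted p = 0.0121) and Kdsr (-0.42), Acer1 (-0.18) and Cyp4f39 (-0.25) not past the threshold.

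Proteases of filaggrin and of desquamation came next. Of 23 proteases and inhibitors tested, 8 rose, 1 fell and 14 did not pass (median log2 fold change 0.32). Casp14, a caspase of the late epidermis that acts on filaggrin, was at 869 and 893 CPM in the control mice and 2472 and 1862 CPM in the CerS4epi-/- mice (log2 fold change 1.34 ± 0.13 (SE), adjusted p = 1.13e-04), Asprv1 at 9219 and 9700.2 CPM in the control mice and 15498 and 14414 CPM in the CerS4epi-/- mice (log2 fold change 0.70 ± 0.10 (SE), adjusted p = 8.16e-04), and Prss8, a membrane-bound serine protease needed for the barrier, at 181 and 208 CPM in the control mice and 444 and 379 CPM in the CerS4epi-/- mice (log2 fold change 1.12 ± 0.12 (SE), adjusted p = 1.94e-04). Klk9, a kallikrein, rose too (log2 fold change 0.88), whereas Klk7 did not pass at 7150.0 and 6911 against 7536 and 7590.2 CPM. Capn1, a calpain, fell. Under library size scaling 5 higher and 6 lower passed, and in the matched fit 4 higher and 0 lower of 22. In the latter Casp14 was at 1.04 (adjusted p = 2.15e-04), Prss8 at 0.60, Klk9 at 0.34 and Asprv1 at 0.28 (adjusted p = 0.0514).

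Genes that clear nucleus and organelles rose in 9 of 13 cases and fell in 0 (median log2 fold change 0.60). Dnase1l2, the nuclease of cornifying cells, was at 129.8 and 144 CPM in the control mice and 306 and 259 CPM in the CerS4epi-/- mice (log2 fold change 1.09 ± 0.12 (SE), adjusted p = 2.04e-04). Bnip3, a receptor for mitophagy, was at 381 and 424 CPM in the control mice and 924 and 762 CPM in the CerS4epi-/- mice (log2 fold change 1.11 ± 0.12 (SE), adjusted p = 1.94e-04), and Map1lc3b, an autophagosome protein, at 675 and 835 CPM in the control mice and 1449 and 1307 CPM in the CerS4epi-/- mice (log2 fold change 0.91 ± 0.12 (SE), adjusted p = 3.93e-04). In all 3 the lower CerS4epi-/- mouse exceeded the higher control. Scaled by library size, 5 higher and 1 lower passed, and in the matched fit 3 higher and 0 lower of 13, with Dnase1l2 at 0.66, Bnip3 at 0.60 and Map1lc3b at 0.49.

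Calcium-binding genes rose in 5 of 11 cases and fell in 1. Calm4 was at 9913 and 11361 CPM in the control mice and 19894 and 16199 CPM in the CerS4epi-/- mice (log2 fold change 0.80 ± 0.13 (SE), adjusted p = 0.00108). S100a11, an S100 protein of envelopes, fell from 333 and 286 to 199 and 188 CPM (log2 fold change -0.64 ± 0.12 (SE), adjusted p = 0.00349). Under library size scaling 1 higher and 3 lower passed, so that the balance turned, and in the matched fit 1 higher and 1 lower of 11, with Calm4 at 0.46.

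Of 21 transcription factors of keratinocyte differentiation, 5 rose, 2 fell and 14 did not pass (median log2 fold change 0.07). Prdm1 was at 517 and 608 CPM in the control mice and 1126 and 1058 CPM in the CerS4epi-/- mice (log2 fold change 0.99 ± 0.11 (SE), adjusted p = 2.02e-04). Klf4, a barrier regulator, was at 2671 and 2386 CPM in the control mice and 4101 and 3857 CPM in the CerS4epi-/- mice (log2 fold change 0.69 ± 0.11 (SE), adjusted p = 0.00108), and Ovol1, a repressor that takes keratinocytes out of the cell cycle, at 292 and 349 CPM in the control mice and 528 and 519 CPM in the CerS4epi-/- mice (log2 fold change 0.74 ± 0.11 (SE), adjusted p = 9.51e-04). Along the Lce1 share, Klf4 overlapped between the genotypes at 9% to 12% and at 12% or more. Grhl3 and Rora rose by 0.47 and 0.52 on the log2 scale. Gata3, a factor of epidermal differentiation, fell by 0.52. Scaled by library size, 3 higher and 5 lower passed, without Grhl3 and Rora, so that the balance turned. In the matched fit 6 higher and 0 lower of 21 passed, with Prdm1 at 0.52, Klf4 at 0.42 and Gata3 (-0.28) not past the threshold.

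Of the immediate early and AP-1 genes 11 of 13 rose, with 0 lower (median log2 fold change 1.01). AP-1 factors are dimers of Fos and Jun proteins that act on many genes of the epidermal differentiation complex, and their transcripts also rise within minutes of tissue dissociation. Jun was at 912 and 834 CPM in the control mice and 2025 and 1955 CPM in the CerS4epi-/- mice (log2 fold change 1.22 ± 0.11 (SE), adjusted p = 1.10e-04), Fos at 982 and 689 CPM in the control mice and 1682 and 1721 CPM in the CerS4epi-/- mice (log2 fold change 1.06 ± 0.15 (SE), adjusted p = 6.29e-04), and the phosphatase gene Dusp1 at 405 and 372 CPM in the control mice and 850.0 and 877 CPM in the CerS4epi-/- mice (log2 fold change 1.19 ± 0.11 (SE), adjusted p = 1.10e-04). In these sums no mouse of 1 genotype reached the levels of the other. Along the Lce1 share, Fos overlapped between the genotypes at 9% to 12% and at 12% or more, while Jun did not. At 9% to 12% Fos held 0.114% and 0.067% of counts in the control mice and 0.094% and 0.0995% in the CerS4epi-/- mice. At 12% or more it held 0.0373% and 0.0355% against 0.0436% and 0.0287%. The list held 11 higher genes under library size scaling and 11 of 13 in the matched fit. It also moved in spinous cells, where 10 of 13 were higher. The change differed from that in spinous cells for 5 genes of the list, relatively higher in members, and 0 were relatively lower. The summed level of the list over the members was 6826 and 5881 against 12648 and 12590.0 CPM. The part of the dissociation in this difference was not tested.

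Alarmins and epithelial cytokines rose in 10 of 13 cases and fell in 0 (median log2 fold change 0.75). Il18, the most abundant, was at 1234 and 1511 CPM in the control mice and 2297 and 1955 CPM in the CerS4epi-/- mice (log2 fold change 0.67 ± 0.12 (SE), adjusted p = 0.00298). Il36b was at 252 and 307 CPM in the control mice and 709.5 and 662 CPM in the CerS4epi-/- mice (log2 fold change 1.33 ± 0.12 (SE), adjusted p = 1.10e-04), and Il1a, a cytokine that keratinocytes store, at 125 and 90.6 CPM in the control mice and 218 and 224 CPM in the CerS4epi-/- mice (log2 fold change 1.08 ± 0.15 (SE), adjusted p = 6.34e-04). Under library size scaling 7 higher and 1 lower passed, and in the matched fit 4 higher and 0 lower of 12, where Il18 (0.22) and Il1a (0.41) did not pass. Of 8 glutathione and NRF2 genes 2 rose, led by the thioredoxin reductase Txnrd1 at 409 and 379 CPM in the control mice and 870.1 and 712 CPM in the CerS4epi-/- mice (log2 fold change 1.04 ± 0.12 (SE), adjusted p = 2.31e-04), and of 10 interferon-response genes 4 rose, among them Isg15 at 38 and 24.2 CPM in the control mice and 114 and 80.4 CPM in the CerS4epi-/- mice (log2 fold change 1.71 ± 0.23 (SE), adjusted p = 3.99e-04). Scaled by library size, the glutathione list held 1 higher and 0 lower and the interferon list 2 higher and 1 lower, and in the matched fit they held 1 higher and 0 lower of 7 and 2 higher and 0 lower of 8. Both named genes passed again in the matched fit, with Txnrd1 at 0.52.

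By size alone, the largest rises among genes of at least 50 CPM in 1 genotype that did not overlap were H19, Defb14, Defb6, Gm5849, Il36a, Ofcc1, Sprr2h, Serpinb12, Ehf and Apol7a. H19, an imprinted long noncoding RNA, was at 13.2 and 1.5 CPM in the control mice and 45.6 and 116 CPM in the CerS4epi-/- mice (log2 fold change 3.54 ± 0.57 (SE), adjusted p = 0.00131), with a wide spread in each genotype. The beta-defensin Defb14 was at 8.04 and 5.98 CPM in the control mice and 66.2 and 75.3 CPM in the CerS4epi-/- mice (log2 fold change 3.37 ± 0.22 (SE), adjusted p = 2.41e-05), from 22 and 20 counts in the control and 122 and 103 in the CerS4epi-/- mice, and it was found in 5.51% of all members. Gm5849, on chromosome 3 at 90683126 to 90685187 (GRCm39), was the most abundant of the 10, at 187 and 209 CPM in the control mice and 1041 and 1238 CPM in the CerS4epi-/- mice (log2 fold change 2.56 ± 0.12 (SE), adjusted p = 1.47e-06). Serpinb12, a serine protease inhibitor, was at 19.7 and 23.9 CPM in the control mice and 103 and 92.1 CPM in the CerS4epi-/- mice (log2 fold change 2.19 ± 0.16 (SE), adjusted p = 7.28e-05), and Ehf, an epithelial ETS factor, at 16.1 and 24.8 CPM in the control mice and 89.5 and 88.4 CPM in the CerS4epi-/- mice (log2 fold change 2.14 ± 0.19 (SE), adjusted p = 1.10e-04).

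The largest falls were Ifitm6, Rrm2, Cryab, Clybl, Tspan8, Gjb5, Sptlc3, Ppfibp1, Anxa7 and Ptgs1. Ifitm6, of the interferon-induced transmembrane family, was at 303 and 337 CPM in the control mice and 62.9 and 23.4 CPM in the CerS4epi-/- mice (log2 fold change -2.79 ± 0.26 (SE), adjusted p = 1.13e-04). Rrm2, a subunit of ribonucleotide reductase, was at 51.9 and 52 CPM in the control mice and 9.22 and 12.4 CPM in the CerS4epi-/- mice (log2 fold change -2.25 ± 0.22 (SE), adjusted p = 1.13e-04), and Cryab, the small heat shock protein alpha-B crystallin, at 80.1 and 95.7 CPM in the control mice and 17.4 and 21.9 CPM in the CerS4epi-/- mice (log2 fold change -2.14 ± 0.19 (SE), adjusted p = 1.10e-04). Ptgs1, the cyclooxygenase COX-1, was at 146 and 174 CPM in the control mice and 58 and 50.4 CPM in the CerS4epi-/- mice (log2 fold change -1.51 ± 0.15 (SE), adjusted p = 1.13e-04). All 20 genes passed again, in the same direction, in the matched fit and under library size scaling.

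**Figure D4:**
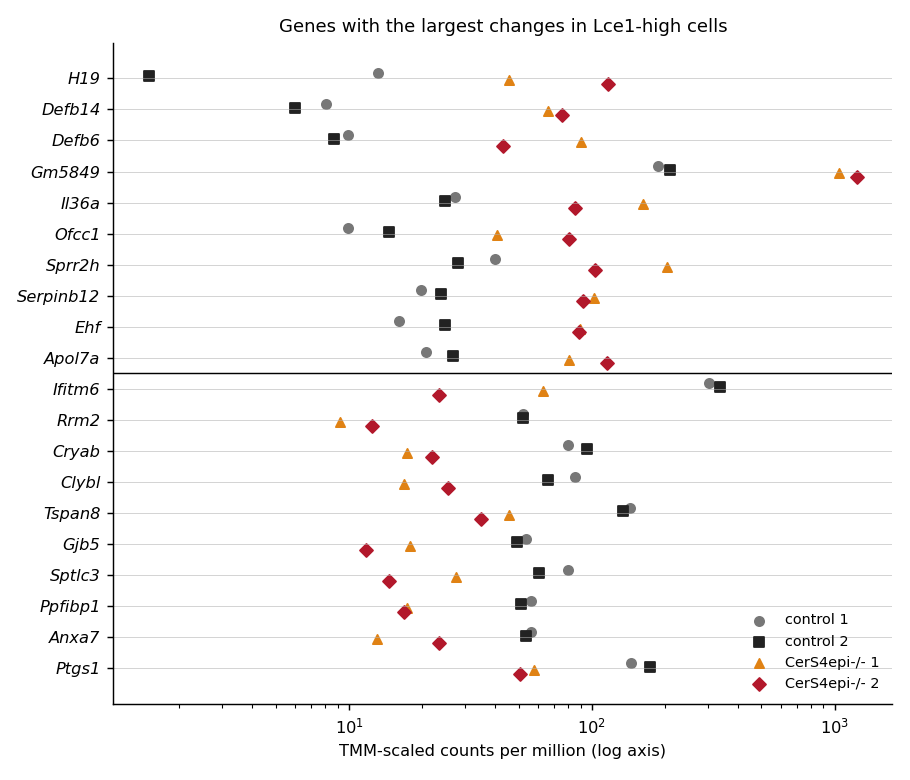
Level of the 10 genes with the largest rises (upper rows) and the 10 with the largest falls (lower rows) in Lce1-high cells, in TMM-scaled CPM on a log axis, with 1 point per mouse. In each row the CerS4epi-/- mice lie on 1 side of both controls, from 1.5 CPM of H19 in control mouse 2 to 1238 CPM of Gm5849 in CerS4epi-/- mouse 2.

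Whether the change was that of spinous cells was asked in 1 model over both kinds of cells, with the mouse as block. The change differed for 787 of 11998 genes (6.56%), 511 relatively higher (4.26%) and 276 lower (2.3%) in Lce1-high cells. In spinous cells alone 592 of 12798 genes (4.63%) passed, 2.75% higher and 1.88% lower, and of the 1417 member genes also tested there 161 passed in the same direction. Spinous sums hold 9271521 to 16961800 counts, several-fold those of the members. The count of 787 was 356 without control mouse 1, 445 without control mouse 2, and 88 in the matched fit. The split of 511 higher and 276 lower was 776 and 146 with DESeq2 size factors and 185 and 1386 under library size scaling, so which direction held more genes turned with the scaling.

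Kprp, Casp14 and Txnrd1 rose in members and did not pass in spinous cells (log2 fold changes there -0.49, 0.25 and -0.27), with differences of 1.54 ± 0.17 (SE, adjusted p = 1.75e-05), 1.06 ± 0.14 (adjusted p = 5.45e-05) and 1.30 ± 0.16 (adjusted p = 4.05e-05). Flg and Hrnr also passed in spinous cells, with log2 fold changes of 1.23 and 0.70, and their differences of -0.10 and 0.29 did not pass. Btc rose in members (log2 fold change 0.38 ± 0.11 (SE), adjusted p = 0.0276) and fell in spinous cells, where it is scarce (log2 fold change -1.03, adjusted p = 0.0117), and in the matched fit its value in members was -0.04 and under library size scaling 0.05, neither past the threshold. Plet1, which the study used as a marker of the upper hair follicle, moved in opposite directions too, with 112 and 139 against 71.1 and 46.1 CPM in members (log2 fold change -1.04 ± 0.19 (SE), adjusted p = 0.00272) and a log2 fold change of 0.67 in spinous cells (adjusted p = 0.0414).

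**Figure D5:**
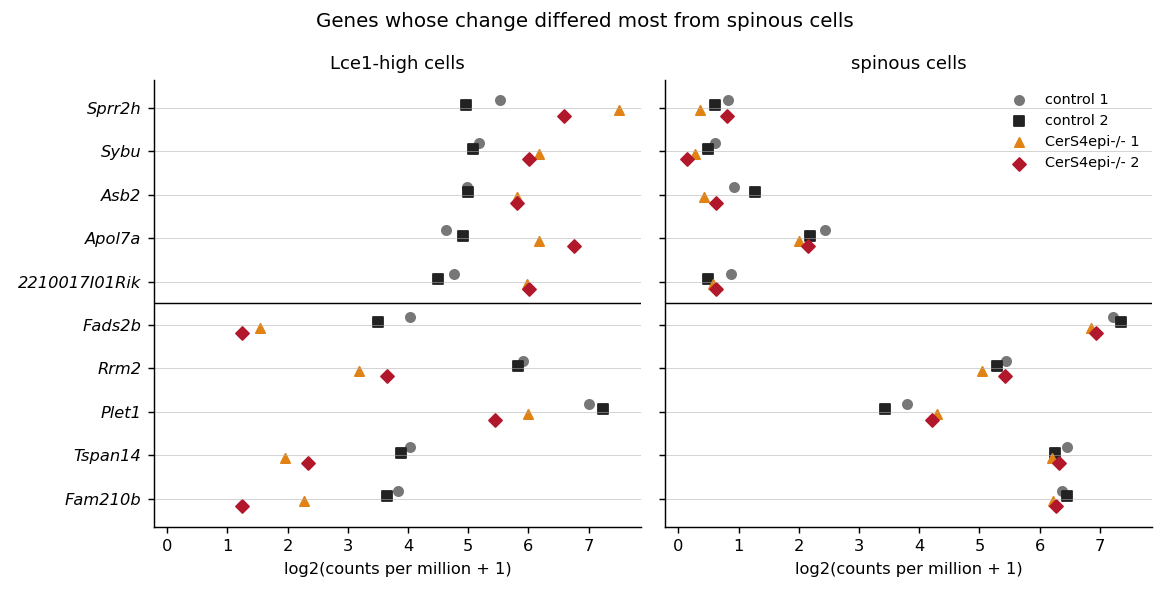
Level in each mouse, as log2 of unscaled CPM plus 1, of the 10 genes whose change between genotypes differed most from spinous cells, in Lce1-high cells (left) and spinous cells (right). Plet1 is lower in CerS4epi-/- mice on the left and higher on the right, and the 5 upper genes are near the bottom of the scale in spinous cells.

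Cstb, a cystatin, was at 257 and 292 CPM in the control mice and 283 and 261 CPM in the CerS4epi-/- mice, where the genotypes overlapped (log2 fold change 0.02, adjusted p = 0.911), though it passed as lower under library size scaling (-0.31, adjusted p = 0.044). Sprr1a was at 197 and 31.1 CPM in the control mice and 94.4 and 65.1 CPM in the CerS4epi-/- mice, with control mouse 1 far above the others. It did not pass (log2 fold change -0.44, adjusted p = 0.646), but its direction turned and it passed as higher without control mouse 1, at 1.41 (adjusted p = 5.77e-04), and without the Cst6 and 2310046K23Rik limits, at 0.73 (adjusted p = 3.97e-04).

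Markers of melanocytes, mast cells, fibroblasts, T cells and Langerhans cells were low, and a T cell marker differed. Melanocyte markers (4 of 4) and mast cell markers (2 of 2) had 0 counts in members, and the 4 fibroblast markers summed to at most 3.80 CPM. T cell markers summed to 2.19 and 0.897 CPM in the control and 43.4 and 5.12 in the CerS4epi-/- mice, Trdc being the most abundant. Thy1, the T cell marker that could be tested, passed as higher at 1.83 and 0.897 against 9.22 and 5.12 CPM (log2 fold change 2.48 ± 0.57 (SE), adjusted p = 0.0102), and also under library size scaling (2.15). Cd3d, Cd3e and Cd3g had counts in CerS4epi-/- mouse 1 only. The part of T cells in the values of the members was not tested. The 5 Langerhans cell markers summed to 6.58 and 55 against 16.3 and 17.5 CPM.

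Of 5 upper follicle and infundibulum markers tested 3 rose and 0 fell, Slurp1 at 296 and 286 CPM in the control mice and 728 and 609 CPM in the CerS4epi-/- mice (log2 fold change 1.24 ± 0.12 (SE), adjusted p = 1.13e-04), Defb6 at 9.87 and 8.67 against 90.6 and 43.1 CPM and Krt79 at 5.85 and 5.68 against 36.3 and 21.2 CPM. The list summed to 892 and 904 against 1427 and 1316 CPM, with Slurp1 the most abundant, and in the matched fit the same number, 3, were higher. Under library size scaling 3 were higher and 1, Krt17, lower. In spinous cells 5 of the 5 were higher, and the list summed there to 304 and 334 against 541 and 605 CPM. The change differed from that in spinous cells for some genes of the list, with 1 relatively higher and 3 relatively lower in members. Plet1, which was not in this list, fell in members, as given above. Basal markers rose in 2 of 7 cases, Krt5 and Krt14 (log2 fold changes 0.39 and 0.51), and the sebaceous marker Scd1 fell by 0.87. Scaled by library size, 0 basal markers passed, and in the matched fit 1 did, Krt14, while Krt5 (0.53) and Scd1 (-0.69) did not. The part of follicle or basal cells in the values of the members was not tested.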

How the data were processed

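Epidermal cells of 4 mice were captured with BD Rhapsody. The authors trimmed reads with fastp 0.23.2 and deposited expected counts: unique molecular identifiers per gene and barcode from STARsolo (STAR 2.7.10a, GRCm39, Gencode vM29), with those that matched several genes shared by an EM step, no cell filter and no normalization. Totals were 42619084 and 48497481 in the control and 53106317 and 39231945 in the CerS4epi-/- libraries. Counts were rounded, cells filtered and members summed per mouse. The sums were tested with edgeR 4.0.16 (quasi-likelihood, TMM, filterByExpr, Benjamini-Hochberg at 0.05), which was also tested on simulated data. Each SE was derived from that test, as the absolute log2 fold change over the square root of its F statistic. The difference from spinous cells was a class by genotype term with mouse as block. With 2 mice per genotype, depth per mouse and the number of mice limit precision. Alternatives included DESeq2 1.42.0. Members and gene lists were chosen with earlier results of these data known. Named genes were the 10 largest rises and falls past the threshold without overlap and of at least 50 CPM, the 20 highest, the 10 most above and below spinous cells, list members past the threshold or among the 3 highest, Cers4, Cstb, Krt6a, Plet1 and Sprr1a, and the 5 largest differences from spinous cells each way. Some genes that this rule selects are not reported here.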

Additional observations from a re-analysis of the deposited data

Results flagged for a closer look

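The change between genotypes differed from that in spinous cells, by the class by genotype term of the edgeR model, for the genes that follow, chosen as the 5 largest differences in each direction. The difference in log2 fold change was 2.73 ± 0.60 (SE, adjusted p = 0.00646) for Sprr2h, a small proline-rich envelope gene. It was 2.701 ± 0.72 (adjusted p = 0.0245) for Sybu, which links cargo to kinesin, and 2.58 ± 0.53 (adjusted p = 0.00378) for Asb2, a ubiquitin ligase subunit. It was 2.32 ± 0.31 (adjusted p = 7.50e-05) for Apol7a, of the apolipoprotein L family, and 1.99 ± 0.59 (adjusted p = 0.0456) for 2210017I01Rik. On the other side stood Fads2b, a fatty acid desaturase gene, at -2.17 ± 0.50 (adjusted p = 0.00875), and Rrm2 at -2.11 ± 0.26 (adjusted p = 4.05e-05). Plet1 stood at -1.73 ± 0.23 (adjusted p = 5.61e-05). Tspan14, a tetraspanin, stood at -1.69 ± 0.38 (adjusted p = 0.00707), and Fam210b at -1.65 ± 0.43 (adjusted p = 0.0228). Apol7a, Rrm2 and Plet1 passed again when members were matched on the Lce1 share, and the other 7 did not.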

How the results depend on the processing

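The count of 1467 changed genes was 885 with DESeq2, 181 in members with at least 6% Lce1, 360 with equal cells per mouse and 455 when matched on the Lce1 share, and 943 to 1483 with 1 mouse left out, lowest without control mouse 1. The count of 787 differences from spinous cells was 1571 under library size scaling and 88 when matched, and 356 to 957 with 1 mouse left out. The matched, share-split and library size settings were chosen after seeing the data. The difference in share of cells, 1.37 points, stayed between 0.686 and 1.67, and between 0.881 and 1.86 with 1 mouse left out. Replicate numbers did not pair the mice (correlation of deviations 0.026), and with the replicate block 1821 genes passed. Of 137 named genes that passed, 136 kept call and direction with DESeq2 size factors, 102 under library size scaling, 62 with equal cells per mouse and 118 to 126 with 1 mouse left out; when matched, 74 of 134 did, and at an Lce1 share of at least 6%, 40 of 128, with 77 losing the call.

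At an Lce1 share of at least 6% the log2 fold change changed sign for Btc (-0.071), Rab3b (-0.14), Cnfn (-0.12), Alox12b (-0.083), Ctsl (-0.018), Capn1 (0.043), Cdh1 (0.58), Grhl3 (-0.094), S100a11 (0.015), Ereg (-0.34) and Scd1 (0.39), none past the threshold. When matched, Btc (-0.035) and Rab3b (-0.10) did. Among genes that had not passed, Krtdap was -0.054 at 6% or more, -0.19 under library size scaling and -0.030 matched, and Klk7 -0.23, -0.19 and -0.081. Sprr1a was 0.73 without the Cst6 and 2310046K23Rik limits (adjusted p = 3.97e-04) and -1.25 to 1.41 with 1 mouse left out, the highest without control mouse 1 (adjusted p = 5.77e-04). Cstb was -0.0079 under 6% Lce1, -0.0063 with at most 10% mitochondrial counts, -0.018 with equal cells, -0.31 under library size scaling (adjusted p = 0.0440), -0.013 with no low count filter and -0.066 to 0.12 with 1 mouse left out. The cause was not tested.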
